A study of Homo sapiens with 6 samples.

Results

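Pyrimidine salvage enzymes and nucleotidases were examined in HaCaT cells, an immortalized human keratinocyte line. They were 10 genes chosen by symbol: CDA, UPP1, TYMP, DCK, UCK2, TK1, TK2, NT5C3A, NT5C3B and NT5E. All 10 had a row among the 20014 genes of the deposited table. The 3 knockout libraries came from cells given a lentiCRISPR v2 vector with a guide against STUB1, which encodes an E3 ubiquitin ligase that works with chaperones. The 3 control libraries came from cells given the same kind of vector with a control guide, whose genotype the labels give as WT. Both groups were infected, put through selection, sorted into plates, grown as colonies and left without special treatment. The knockout was judged by immunoblot of the colonies. Whether libraries within a group stem from different clones or cultures is not stated. P-values therefore reflect only how far these libraries scatter, and that scatter may be technical, and a difference between clones cannot be told apart from a difference between genotypes.

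Salvage recycles nucleosides released by RNA and DNA turnover or taken up from the medium, and so spares the synthesis of pyrimidines from small precursors. Kinases trap a nucleoside in the cell as a monophosphate, and 5'-nucleotidases undo that step. Deaminases and phosphorylases convert nucleosides or split off the base. Several of these enzymes activate or inactivate nucleoside drugs, and the balance between kinases and nucleotidases sets how much of a nucleoside stays in the cell.

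The table gives FPKM, fragments scaled to transcript length and library total, so levels can be set side by side between genes. The set was drawn up with the knockout-control differences of these libraries in view. The adjusted p-values below come from a limma fit over all 11262 genes with a mean of at least 1 FPKM. For these 10 genes they describe the fit and carry no independent weight. Differences are knockout minus control on log2(FPKM + 1), which understates changes of low genes. Groups of 3 against 3 cannot give an exact permutation p under 0.1.

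Sequences upstream of 3 of the genes are shown first: CDA and NT5C3B, which had the largest differences, and TK2, the single gene called higher. Each is the 250 bases before the RefSeq start (GRCh38.p14), read 5' to 3' on the strand of the gene. By GENCODE 29 the CDA and NT5C3B windows reach over the annotated start of their gene, and the TK2 window lies inside its gene, since the RefSeq start is downstream of the GENCODE start. They lie at chr1:20588847-20589096 (plus strand), chr17:41836233-41836482 (minus strand) and chr16:66550123-66550372 (minus strand). Capitals mark matches, on either strand, to 7 short motifs.
CDA: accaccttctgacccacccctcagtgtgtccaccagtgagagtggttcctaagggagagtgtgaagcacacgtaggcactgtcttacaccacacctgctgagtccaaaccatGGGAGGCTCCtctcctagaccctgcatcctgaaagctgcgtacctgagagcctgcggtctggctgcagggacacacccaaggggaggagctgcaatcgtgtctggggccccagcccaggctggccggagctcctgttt
NT5C3B: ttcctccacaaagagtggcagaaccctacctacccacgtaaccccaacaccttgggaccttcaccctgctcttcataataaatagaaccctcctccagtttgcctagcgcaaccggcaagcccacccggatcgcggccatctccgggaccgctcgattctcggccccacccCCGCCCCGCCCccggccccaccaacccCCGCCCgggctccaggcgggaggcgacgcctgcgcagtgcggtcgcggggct
TK2: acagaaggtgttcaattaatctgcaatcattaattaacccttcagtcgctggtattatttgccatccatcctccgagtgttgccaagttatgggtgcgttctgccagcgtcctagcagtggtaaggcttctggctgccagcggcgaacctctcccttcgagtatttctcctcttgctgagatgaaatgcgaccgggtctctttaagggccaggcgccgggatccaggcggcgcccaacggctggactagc

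The search covered the GC box GGGCGG, which many promoters of widely expressed genes carry, and the CCAAT box, spelled as its name. It covered the AP-1 site TGAGTCA, a target of FOS and JUN proteins in keratinocytes, and the TATA box, spelled TATAAA. It also covered the E2F site TTTCCCGC of cell cycle genes and, by name alone, the interferon response element and the kB site. The CDA window held 1 kB match, 138 to 129 bases before the start, and such a match occurred in 9.96% of 35114 windows of the same length. In NT5C3B the capitals are 3 GC boxes, of which the first pair overlap by 1 base; 42.6% of windows held a GC box. TK2 had no match to any of the 7. The CDA window had 5 CpG dinucleotides, against 22 in NT5C3B, 14 in TK2 and a median of 11 over all windows. Over the 15 windows listed for the 10 genes the count ran from 4, at the second start of NT5C3A, to 40 at TYMP. These are letter matches and counts, and no binding was measured.

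In the control, TK1, the S-phase thymidine kinase, had the highest mean level (74.0 FPKM), followed by UPP1 (63.6). Then came NT5C3A (41.9), NT5E (38.9), NT5C3B (23.6), UCK2 (18.1), DCK (13.96), TYMP (4.38), CDA (2.53) and TK2 (1.35). The ranges over 3 libraries overlapped between TK1 and UPP1 and between NT5C3A and NT5E, and between no other neighbours in this order. In the knockout the order was the same except that NT5C3B moved below UCK2 and DCK, and CDA below TK2. There, the ranges overlapped between NT5C3A and NT5E and between DCK and NT5C3B.

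By limma with Benjamini-Hochberg adjustment, 5 of the 10 genes were called lower in the knockout (CDA, NT5C3B, NT5C3A, NT5E and DCK), 1 was called higher (TK2) and 4 were not called. Over all tested genes 13.3% were called lower and 9.58% higher. The groups did not overlap for 9 of the 10, 8 lower and 1 higher, where 45.6% of all tested genes had no overlap (25.3% lower, 20.4% higher). Nothing is read from these counts, since the contrast helped choose the genes. The median difference of the 10 was -0.29, against -0.01 over all tested genes. CDA passed the filter on low values through its control libraries alone, so it had to differ. The other 9 had a mean of at least 1 FPKM in both groups.

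Control 3 was the highest control library for 7 of the 10 genes and the highest of all 6 for 6 of them. Across all tested genes it correlated with the other controls at r of 0.988 and 0.986, where the other pairs within a group had 0.996 to 0.999. Mitochondrially encoded transcripts took 20.9% of its FPKM, against 24.7% to 30.8% in the other 5. Library sizes estimated from the steps between low values were 45700000 to 52600000 reads. STUB1 itself stood at 52.5% of control, 23.2 ± 1.55 against 44.1 ± 7.67 FPKM (SD, n = 3). Its groups did not overlap (log2 difference -0.89, limma with Benjamini-Hochberg adjusted p = 0.00125), so no library went against its label. Of 11 keratinocyte markers 9 were tested, and the list summed to 1115 to 1201 FPKM in knockout and 979 to 1057 in control libraries. Of the 9, KRT5 (257.0 against 145 FPKM) and COL17A1 (122 against 75.0) were called higher and PERP lower (96.4 against 137), and 6 were not called. The call of PERP was lost without knockout 2. KRT14 and KRT17 were under 1 FPKM in every library (0.162 to 0.328 and 0.282 to 0.536). The part of these marker differences in the differences of the enzymes was not tested. Fibroblast markers summed to at most 0.562 FPKM, with DCN at 0 in all 6. Of 8 leukocyte markers only CD68 was tested (list sums 21.4 to 25.5 FPKM), and of 7 melanocyte markers PMEL and MITF (6.48 to 7.66), none of which was called. PTPRC and TYR, defining markers of those cells, were at most 0.011 FPKM and at 0 in every library, respectively.

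CDA encodes cytidine deaminase, which turns cytidine and deoxycytidine into uridine and deoxyuridine and inactivates several cytidine drugs. It measured 2.25, 1.94 and 3.39 FPKM in controls 1 to 3. In the knockout it was 0.078 FPKM in library 1 and was listed at 0 in libraries 2 and 3. The gene was thus low but present in every control and at or near 0 in every knockout library. At its exonic length of 963 bases 1 read would be worth about 0.0197 to 0.0227 FPKM in these libraries. The value in knockout 1 therefore rests on few reads, and no fold is given. CDA passed the filter on low values through its control libraries alone. Its adjusted p (8.26e-05 by limma) and its rank (4th most negative of 11262 tested genes) therefore carry no weight. The log2 difference was -1.76 with SE 0.13. With a pseudocount of 0.1 it was -4.40 and as TPM -2.69, because its size depends on the pseudocount. Whether fewer cells carried CDA mRNA or each cell carried less cannot be told apart in bulk RNA.

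Genes listed at 0 in 1 group were counted over the table, by a rule drawn around the CDA values. Of 11246 genes with a control mean of at least 1 FPKM, 2 were listed at 0 in at least 2 knockout libraries, CDA and AKAP12. AKAP12, a scaffold for protein kinase A, had 2.94, 3.46 and 2.46 FPKM in the controls and 0 in all 3 knockout libraries. In the other direction, 0 of 11265 genes with a knockout mean of at least 1 FPKM were listed at 0 in at least 2 control libraries. Both thresholds and the naming of AKAP12 were chosen after the values were seen. The counts include genes of any higher level, so how rare the pattern is among genes as low as CDA cannot be read from them.

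The genes around CDA did not share its difference. CDA lies on chromosome 1 at 20588948 to 20618908 (GRCh38, plus strand). PINK1, a mitochondrial kinase whose gene lies 14547 bases away, measured 11.3 ± 0.752 FPKM in knockout and 11.9 ± 0.583 in control cells (SD, n = 3; log2 difference -0.07). DDOST, an oligosaccharyltransferase subunit farther along, measured 103.6 ± 3.75 and 101.1 ± 2.60 FPKM (log2 difference 0.04). Of 154 tested genes within 10 Mb on either side, a distance chosen after the values were seen, 6 were called lower and 19 higher by limma, their median was 0.09, and none had a difference as negative as that of CDA.

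The tested genes most like CDA over the 6 libraries, among those with a mean of at least 5 FPKM, were TCP1, RBBP7 and FABP5. Their Pearson correlations on log2(FPKM + 1) were 0.998, 0.998 and 0.998. TCP1, a subunit of the cytosolic chaperonin, measured 129, 121 and 125 FPKM in the knockout and 228, 221 and 257 in the control. In each of the 3 genes, as in CDA, control 3 was the highest library, which largely follows from choosing them by this correlation. With 6 libraries in 2 groups that differ, and with all genes sharing the same libraries, this is a description.

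The other deaminases and the transporters that bring nucleosides in gave few calls. DCTD, which deaminates dCMP, stood at 22.9 ± 0.403 FPKM in knockout and 22.6 ± 0.176 in control cells (SD, n = 3), a log2 difference of 0.02 with SE 0.0643. Of 7 nucleoside transporters 3 were tested and none was called by limma with Benjamini-Hochberg adjustment. SLC29A1 and SLC29A2, the equilibrative carriers of the cell surface, had differences of -0.06 and 0.09. The concentrative carriers SLC28A1, SLC28A2 and SLC28A3 were below the filter.

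Both phosphorylases, which split pyrimidine nucleosides into base and sugar phosphate, stood on opposite sides of 0, and neither was called. UPP1, uridine phosphorylase, measured 49.5, 51.2 and 52.5 FPKM in the knockout and 56.9, 60.0 and 73.9 in the control. Every knockout library was below every control library, and the control spread came mainly from control 3. The log2 difference was -0.30 (SE 0.0995; limma, Benjamini-Hochberg adjusted p = 0.0562). It passed under 7 of 16 alternatives, among them the replicate block, which pairs same-numbered libraries (0.0282), and array weights, which give variable libraries less weight (-0.16, 0.00689). The estimate of those weights stopped before it reached its convergence tolerance, so every array-weight value here is provisional. Without control 3 it was -0.19 (adjusted p = 0.0142). Of 52 tested genes within 10 Mb of UPP1 on chromosome 7, 1 had a more negative difference.

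TYMP, thymidine phosphorylase, which also bears the name platelet-derived endothelial growth factor, measured 5.74, 5.60 and 5.89 FPKM in the knockout. In the control it measured 3.51, 3.98 and 5.65. Control 3 reached into the knockout range, and controls 1 and 2 lay below it. The log2 difference was 0.35 (SE 0.129; limma, Benjamini-Hochberg adjusted p = 0.0815). Without control 3 it was 0.51 (adjusted p = 5.77e-05), and with the unconverged array weights 0.56 (adjusted p = 2.11e-07). It also passed under scaling by nuclear genes (0.0454) and in the paired fit with the replicate block (0.0367).

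TYMP overlaps 2 other genes of the same strand at the end of chromosome 22, sharing 339 exonic bases with SCO2 and 347 with ODF3B, so their reads may be shared. SCO2, a copper chaperone of cytochrome oxidase, had a difference of 0.17 and was not called. ODF3B was called higher, at 0.54 (limma, Benjamini-Hochberg adjusted p = 0.00282). Within 500 kb of TYMP, 12 of 20 tested genes were called higher and 0 lower, with a median of 0.34. That is close to the value of TYMP itself, and the part of the region in it was not tested. The ratio of UPP1 to TYMP within a library was 8.62, 9.15 and 8.90 in the knockout and 16.2, 15.1 and 13.1 in the control. This ratio does not depend on scaling between libraries, and its groups did not overlap.

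**Figure D1:**
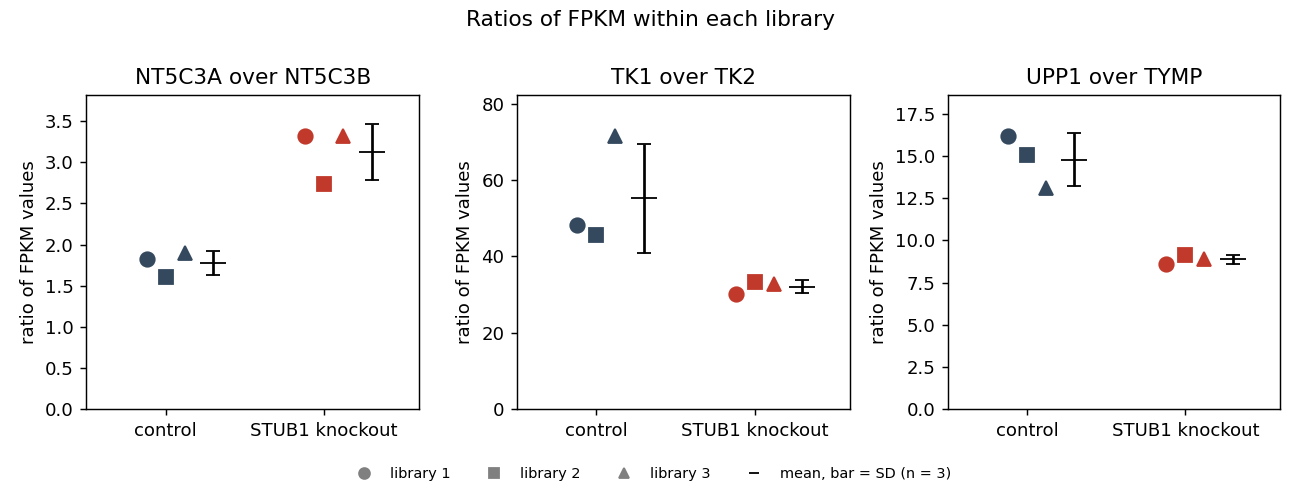
Ratios of FPKM values of paired enzymes within each library (vertical axes, from 0), with symbols for the library number and bars for mean and SD (n = 3). NT5C3A over NT5C3B is higher in the knockout (2.73 to 3.32 against 1.61 to 1.90), and TK1 over TK2 and UPP1 over TYMP are lower.

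Of the kinases that make the first phosphate, DCK and UCK2 stood below control. DCK, deoxycytidine kinase, phosphorylates deoxycytidine and the purine deoxynucleosides and activates drugs such as cytarabine. It measured 12.2, 10.04 and 11.7 FPKM in the knockout and 13.7, 13.1 and 15.1 in the control. The groups did not overlap, but the gap between them was narrow. The log2 difference was -0.29 (SE 0.0903), just inside the threshold (limma, Benjamini-Hochberg adjusted p = 0.0495). The call was lost under 11 of 16 alternatives, among them leaving out any 1 of the 3 knockout libraries (-0.34, -0.21 and -0.31) or control 1 (-0.30). After a correction for GC content and transcript length the difference was -0.06 (adjusted p = 0.381, or 0.459 when the block was included). DCK shares 199 exonic bases with MOB1B on the same strand, whose difference was -0.30 and not called (limma, Benjamini-Hochberg adjusted p = 0.0894, and 0.0275 with the replicate block).

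UCK2, the main uridine-cytidine kinase of dividing cells, measured 16.0, 16.2 and 16.0 FPKM in the knockout and 17.6, 18.8 and 18.0 in the control. The groups were close yet did not overlap, with a log2 difference of -0.16 (SE 0.0668; limma, Benjamini-Hochberg adjusted p = 0.107). It passed after the GC and length correction, at -0.22 (adjusted p = 0.0199, and 0.0313 with the block). It shares 225 exonic bases with TMCO1 on the opposite strand, and without a stated strand setting reads of that stretch cannot be assigned. Its paralogs UCK1 and UCKL1 had 0.19 and 0.12 and were not called (limma, Benjamini-Hochberg adjusted p = 0.0922 and 0.274). The ratio of UCK2 to UCK1 was 0.927, 0.858 and 0.948 in the knockout and 1.17, 1.199 and 1.16 in the control. By FPKM, UCK1 was thus above UCK2 in each knockout library and below it in each control library, though neither gene was called. With a ratio near 1, this order also depends on the transcript lengths that FPKM uses, so no switch between the kinases is read from it.

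Thymidine is phosphorylated by TK1 in the cytosol, mostly in cells that replicate DNA, and by TK2 in mitochondria throughout the cell cycle. TK1 measured 57.3, 65.2 and 59.5 FPKM in the knockout and 65.9, 65.4 and 90.6 in the control. Knockout 2 and controls 1 and 2 were almost equal, and control 3 stood far above them. The log2 difference was -0.27 (SE 0.124; limma, Benjamini-Hochberg adjusted p = 0.149), and -0.11 without control 3 (adjusted p = 0.151). After the GC and length correction it was -0.32 and passed (adjusted p = 0.00943, and 0.0175 with the block), and with array weights it was -0.16 and passed (adjusted p = 0.0107).

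TK2 measured 1.90, 1.96 and 1.82 FPKM in the knockout and 1.36, 1.44 and 1.26 in the control. All knockout libraries were above all control libraries, at a low level near the filter. Its mean was 139.7% of control, with a log2 difference of 0.30 (SE 0.0645; limma, Benjamini-Hochberg adjusted p = 0.012). Leaving out knockout 2 ended the call (0.28, adjusted p = 0.0547), and TK2 was not tested with a filter at 5 FPKM. With a pseudocount of 0.1 its difference was 0.46.

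The TK2 gene, on chromosome 16 at 66508003 to 66552544 (minus strand), starts 19 bases from CKLF, a chemokine-like gene on the opposite strand that was also called higher (0.42, limma, Benjamini-Hochberg adjusted p = 0.0415), a call lost in 7 of 16 alternatives. TK2 shares 226 exonic bases with another gene of its strand, which was not called, and more with non-coding RNAs of the opposite strand (up to 1056), so its reads may be shared. Of 150 tested genes within 10 Mb, 133 had a smaller or more negative difference. The ratio of TK1 to TK2 was 30.1, 33.3 and 32.7 in the knockout and 48.3, 45.6 and 71.6 in the control, without overlap.

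Other genes of DNA precursor supply and of S phase moved in both directions and mostly were not called. Of 12 genes of pyrimidine and deoxynucleotide synthesis, 1 was called higher and 1 lower by limma, with a median of -0.02. RRM2, the S-phase subunit of ribonucleotide reductase, rose from 51.6 ± 0.534 to 62.9 ± 1.78 FPKM (SD, n = 3; log2 difference 0.28, limma with Benjamini-Hochberg adjusted p = 0.0168). DHODH, the mitochondrial enzyme of pyrimidine synthesis, fell from 3.19 ± 0.133 to 2.41 ± 0.186 FPKM (-0.30, adjusted p = 0.0191 by limma). RRM2 lost its call in 4 alternatives and DHODH in 4. TYMS, thymidylate synthase, had 0.05 and SAMHD1, which breaks down deoxynucleotides, 0.14, and neither was called. CAD, the enzyme that starts the pathway, had 0.48 (adjusted p = 0.0506 by limma, and 0.0125 with the replicate block) and was lowest in control 3, at 19.9 FPKM. Without control 3 it was 0.27 (adjusted p = 0.00211). Of 18 S-phase genes, MCM5 (0.26) and E2F1 (0.30) were called higher and CDC6 (-0.29) lower, with a median of 0.05. MCM5 lost its call in 8 of 16 alternatives, E2F1 in 7 and CDC6 in 4, and after the GC and length correction MCM5 was 0.11 (adjusted p = 0.0921, or 0.151 when the block was included). The S-phase list summed to 1243 to 1264 FPKM in knockout libraries and 1256 to 1300 in control libraries.

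The 5'-nucleotidases strip the phosphate from monophosphates and so oppose the kinases. NT5C3A, the cytosolic pyrimidine nucleotidase whose loss in red cells causes a haemolytic anaemia, measured 33.8, 30.1 and 32.3 FPKM in the knockout. In the control it measured 42.5, 37.1 and 46.2. The groups did not overlap, and the mean was 76.4% of control (log2 difference -0.37, SE 0.092; limma, Benjamini-Hochberg adjusted p = 0.0201). Leaving out knockout 2 (-0.33, adjusted p = 0.1003), knockout 3 (-0.38, 0.0713) or control 1 (-0.36, 0.062) ended the call. After the GC and length correction the difference was -0.11 (adjusted p = 0.111, and 0.176 with the block). NT5C3A has an annotated pseudogene, NT5C3AP1, so some reads may be shared.

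NT5C3B, its paralog, acts on a methylated guanosine monophosphate that comes from mRNA caps as well as on pyrimidine monophosphates. It measured 10.2, 11.003 and 9.73 FPKM in the knockout and 23.3, 23.1 and 24.4 in the control. The libraries within each group were close to each other, and the groups were far apart. The mean was 43.7% of control, with a log2 difference of -1.12 (SE 0.0731; limma, Benjamini-Hochberg adjusted p = 5.14e-05), the 17th most negative of 11262. Over all 16 alternatives it lay between -1.21 and -1.08, with adjusted p of at most 0.00157.

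NT5C3B lies on chromosome 17 at 41825181 to 41836263 (minus strand) in a stretch where many genes were lower. Of 211 tested genes within 10 Mb, 106 were called lower and 2 higher, with a median of -0.26, and 1 gene, KRT13, had a more negative difference than NT5C3B. Within 500 kb, 8 of 16 were called lower, with a median of -0.24. Its nearest tested neighbours were P3H4 (-0.15, not called) and KLHL11, which fell from 5.19 to 3.33 FPKM (-0.52, limma with Benjamini-Hochberg adjusted p = 0.00267). NT5C3B stood 0.86 below the median of its 10 Mb window. It also shares 170 exonic bases with KLHL10 on the opposite strand, a gene below the filter.

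The paralogs therefore changed by unequal amounts. The ratio of NT5C3A to NT5C3B was 3.32, 2.73 and 3.32 in the knockout and 1.82, 1.61 and 1.90 in the control, with no overlap between groups. Together they summed to 42.4 ± 1.47 FPKM in knockout and 65.5 ± 5.21 in control libraries (SD, n = 3). The ratio of DCK to NT5C3A, a deoxynucleoside kinase against a pyrimidine nucleotidase, was 0.3602, 0.334 and 0.361 in the knockout. In the control it was 0.322, 0.353 and 0.327, and the groups overlapped.

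NT5E encodes CD73, a surface enzyme that turns extracellular AMP into adenosine. It measured 31.2, 29.2 and 30.3 FPKM in the knockout and 40.0, 40.3 and 36.3 in the control. The groups did not overlap, and here control 3 was the lowest control. The mean was 77.8% of control (log2 difference -0.35, SE 0.0726; limma, Benjamini-Hochberg adjusted p = 0.00968). Leaving out knockout 2 (-0.33, adjusted p = 0.0502) or knockout 3 (-0.35, 0.0536) ended this call.

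NT5E lies on chromosome 6 at 85449584 to 85495791 (plus strand), where most genes were lower. Of 37 tested genes within 10 Mb, 33 were called lower and 0 higher, with a median of -0.57, and 31 had a more negative difference than NT5E. Its neighbour SNX14, a sorting nexin, fell from 6.32 ± 0.229 to 3.59 ± 0.304 FPKM (SD, n = 3; -0.67, limma with Benjamini-Hochberg adjusted p = 0.000726). NT5E thus stood 0.21 above the median of its region, and the part of the region in its difference was not tested. ENTPD1 (CD39), which makes the AMP that CD73 uses, was called lower at -0.22 (limma, Benjamini-Hochberg adjusted p = 0.0488), a call lost in 12 of 15 alternatives, the replicate block among them (0.0611). ADORA2B, the adenosine receptor with the highest level here, measured 34.2 ± 1.47 and 37.9 ± 3.67 FPKM and was not called.

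**Figure D2:**
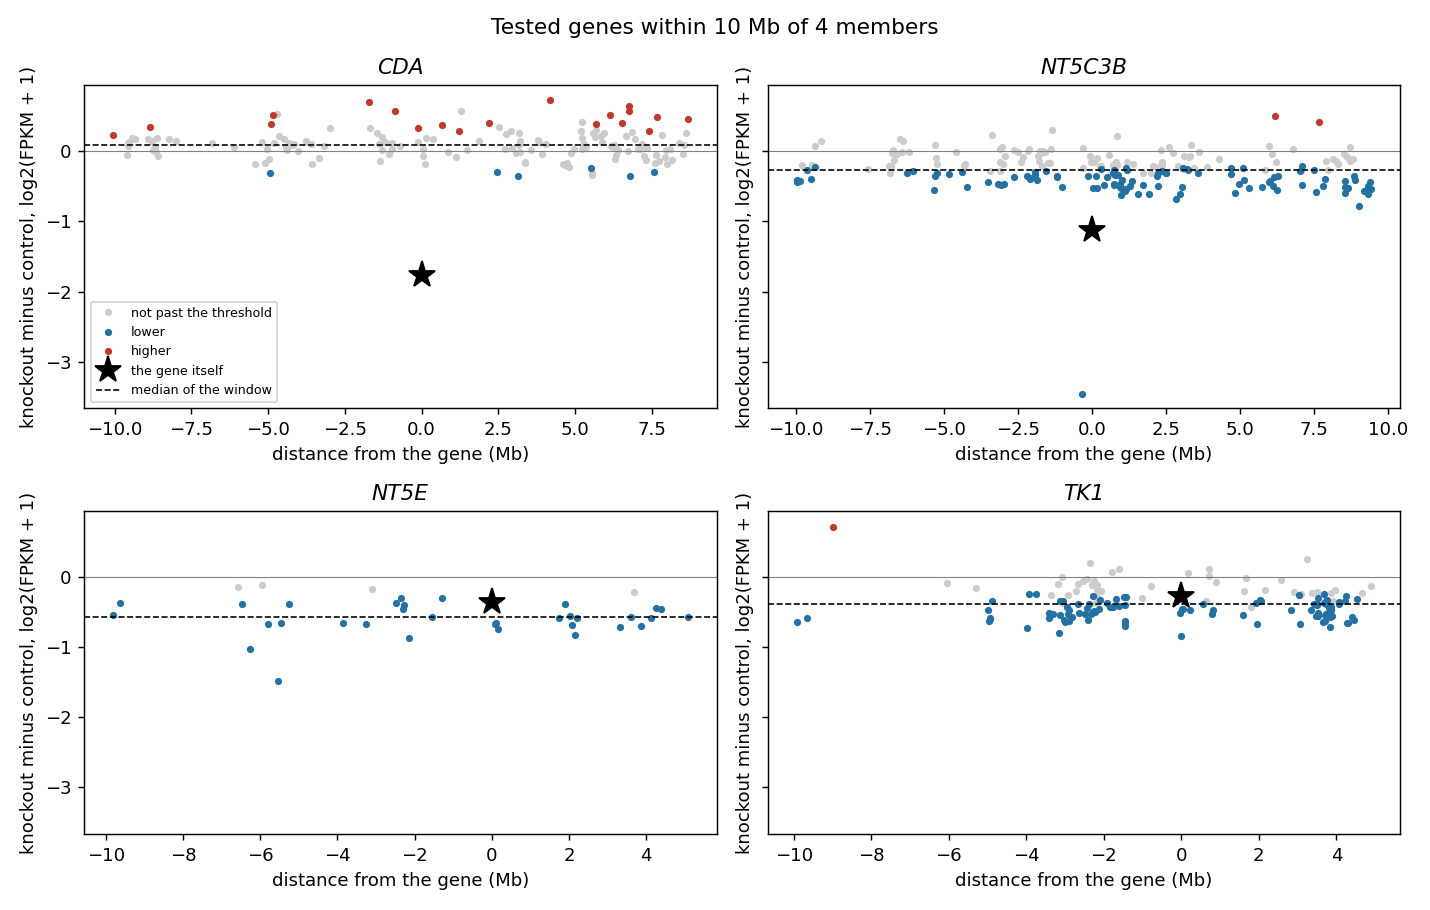
Differences (vertical axis, log2(FPKM + 1), knockout minus control) of tested genes within 10 Mb of 4 of the genes, against distance in Mb (horizontal axis). Stars mark CDA, NT5C3B, NT5E and TK1, dashed lines the median of each window (0.09, -0.26, -0.57 and -0.38). CDA stands alone in its window, NT5C3B lies below nearly all of its neighbours, and NT5E and TK1 lie above the median of theirs.

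Chromosomal windows were also examined for TK1 and for some related genes, all with differences below 0. None was examined for the related genes called higher, NME4, RRM2, MCM5 and E2F1. No link between position and difference can be read from windows picked this way, and the part of the region was not tested. TK1 lies on the same arm as NT5C3B, at 78174075 to 78187233 (minus strand). Of 143 tested genes within 10 Mb of it, 98 were called lower and 1 higher, with a median of -0.38, and 101 had a more negative difference than TK1. SYNGR2, 548 bases from TK1, fell from 48.1 ± 7.11 to 26.3 ± 2.19 FPKM (SD, n = 3; -0.84, limma with Benjamini-Hochberg adjusted p = 0.00125). NT5C, the cytosolic deoxynucleotidase on that arm, had -0.37 (adjusted p = 0.0668 by limma, and 0.0291 with the replicate block), where the median of its window was -0.38. Without control 3 it was -0.20 (adjusted p = 0.0141). NT5DC1, on chromosome 6 as NT5E is, fell from 9.80 ± 0.556 to 6.47 ± 0.485 FPKM (-0.53, adjusted p = 0.0023 by limma), where the median of its window was -0.55. NT5C2 and NT5M, other nucleotidases, had 0.06 and 0.21 and were not called. The list of other nucleotidases includes NT5DC genes, which are named for a nucleotidase domain rather than for a measured activity. Of its 7 tested genes NT5DC1 was the single call, and their median was 0.06.

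Around the other genes the counts within 500 kb were small. NT5C3A had 5 tested genes within 500 kb, of which 1 was called higher and 0 lower. Its nearest, FKBP9, rose by 0.41 (limma, Benjamini-Hochberg adjusted p = 0.00688), opposite to NT5C3A, and RP9 had -0.10. UPP1 had 2 such genes, ABCA13, called higher at 0.30 (lost in 7 of 15 alternatives), and HUS1, not called at -0.10. DCK had 5, of which 2 were called lower, GRSF1 among them (-0.27, adjusted p = 0.0309 by limma, lost in 7 of 16 alternatives). TK1 had 8, of which 7 were called lower, AFMID among them at 84 bases (-0.45, lost without knockout 2). TK2 had 12, with 3 called higher and 2 lower, and UCK2 had 3 with 0 calls, its nearest being TMCO1 (-0.22) and ALDH9A1 (-0.14). NT5E had 3, all called lower, the second nearest being ENSG00000271793 (-0.65). Within 10 Mb, NT5C3A had 66 tested genes, of which 12 were called lower and 3 higher, with a median of -0.12. For DCK 9 of 36 were called lower and 0 higher (median -0.11), and for UPP1, 2 of 52 lower and 6 higher (0.01). UCK2 had 9 of 110 lower and 6 higher (0.003), and TYMP 0 of 85 lower and 22 higher (0.16). Over all tested genes 13.3% were called lower and 9.58% higher, and the part of these regions was not tested.

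The remaining salvage enzymes add further phosphates or use other substrates. Of 12 tested, 1 was called higher and 3 lower by limma with Benjamini-Hochberg adjustment, with a median of -0.000965. NME4, a mitochondrial nucleoside diphosphate kinase, rose from 5.80 ± 0.773 to 10.8 ± 0.451 FPKM (SD, n = 3; 0.80, limma with Benjamini-Hochberg adjusted p = 0.000809) and was called higher under all 16 alternatives. NME4 lies on chromosome 16 at 396725 to 410367, and STUB1, the targeted gene, lies near it at 680224 to 682870. The part of this position in the difference of NME4 was not tested. NME1 and NME2, the abundant cytosolic nucleoside diphosphate kinases, fell to 64.7% and 70.4% of control (-0.61 and -0.49). The call of NME2 was lost without any 1 of the 3 knockout libraries. Their reads may be shared with the NME1-NME2 readthrough gene (-0.52). Within 500 kb of NME1 on chromosome 17, 8 of 9 tested genes were called lower. UPRT, a homolog of uracil phosphoribosyltransferase on the X chromosome, fell from 4.21 ± 0.117 to 2.99 ± 0.268 FPKM (-0.39, adjusted p = 0.00738 by limma), in a window where 15 of 37 genes were called lower. After the GC and length correction UPRT was -0.20 (adjusted p = 0.0781), and without knockout 3 it was -0.34 (0.0505), neither past the threshold.

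CMPK1, which phosphorylates UMP and CMP, had -0.22 (limma, Benjamini-Hochberg adjusted p = 0.0917). After the GC and length correction it was -0.0049. DTYMK, thymidylate kinase, had -0.02. CMPK2, a mitochondrial and interferon-induced kinase, was below the filter, with 0.348, 0.343 and 0.322 FPKM in the knockout and 0.055, 0.115 and 0.070 in the control. Its groups did not overlap at these low levels. DPYD, which starts pyrimidine breakdown, had 0.19 and was not called (adjusted p = 0.0772 by limma). After the GC and length correction it was 0.28 and passed (0.00508, or 0.0176 when the block was included), while DPYS and UPB1, the next enzymes, were at most 0.020 FPKM.

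Over all the lists of related genes, 69 of 97 were tested. By limma 4 were called higher and 10 lower, 55 were not called, and the median was -0.01, equal to that of all tested genes at 2 decimals. Beside the background of 9.58% higher and 13.3% lower, these counts are 4 and 10 of 69.

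**Figure D3:**
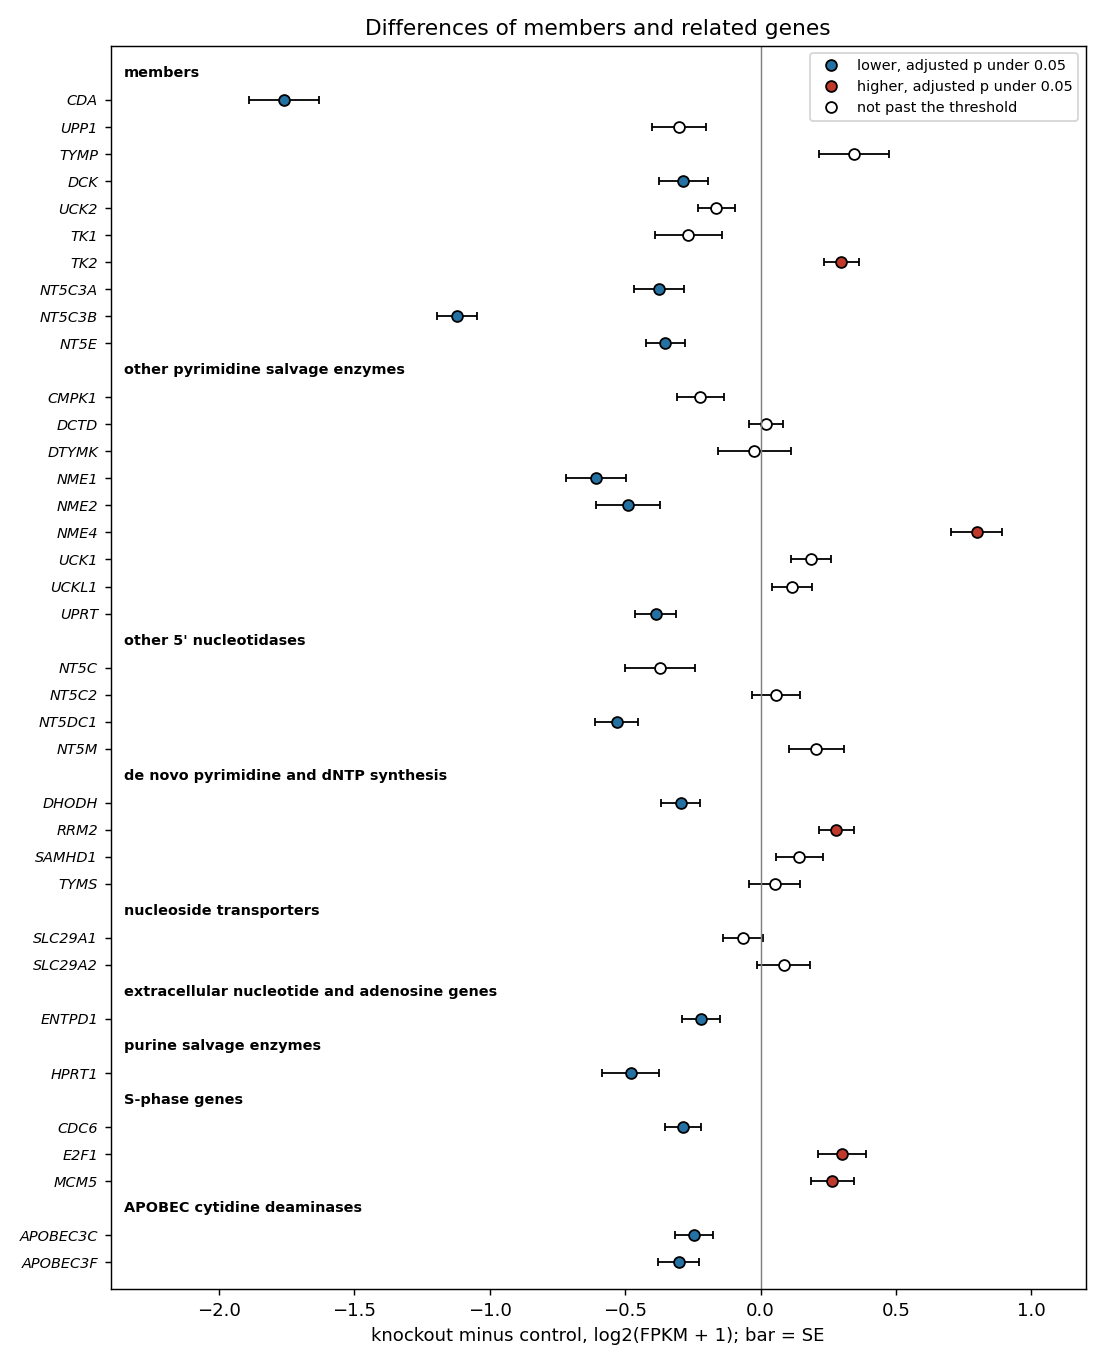
Differences (horizontal axis, knockout minus control on log2(FPKM + 1)) with SE for the 10 genes and the named genes of related lists. Filled points passed adjusted p under 0.05 (limma). CDA (-1.76) and NT5C3B (-1.12) lie farthest below 0 and NME4 (0.80) farthest above.

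Scaling changed which of the 10 were called. Under TPM, scaling by nuclear genes, equal medians, the replicate block and the GC and length correction, every one of the 10 kept its direction. CDA, NT5C3B and NT5E were called lower under each of these. With the GC and length correction the lower calls were CDA, NT5C3B, NT5E, TK1 and UCK2, again 5 genes but with TK1 and UCK2 in place of NT5C3A and DCK. Over all genes that correction called 14.7% lower and 13.5% higher. With array weights, whose estimate did not converge, 8 were called lower and 2 higher, where 29.3% and 27.9% of all genes were. Without control 3 the counts were 7 and 2, beside 21.5% and 18.7%, and with the replicate block 6 and 2, beside 14.9% and 12.1%. Without knockout 2 they were 2 and 0, beside 5.67% and 3.47%, and without knockout 3 they were 2 and 1, beside 6.48% and 4.1%. Scaling by nuclear genes gave 5 and 2, beside 8.99% and 8.67%, and a filter at 5 FPKM, which removed CDA and TK2, gave 3 and 0, beside 13.7% and 8.75%.

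**Figure D4:**
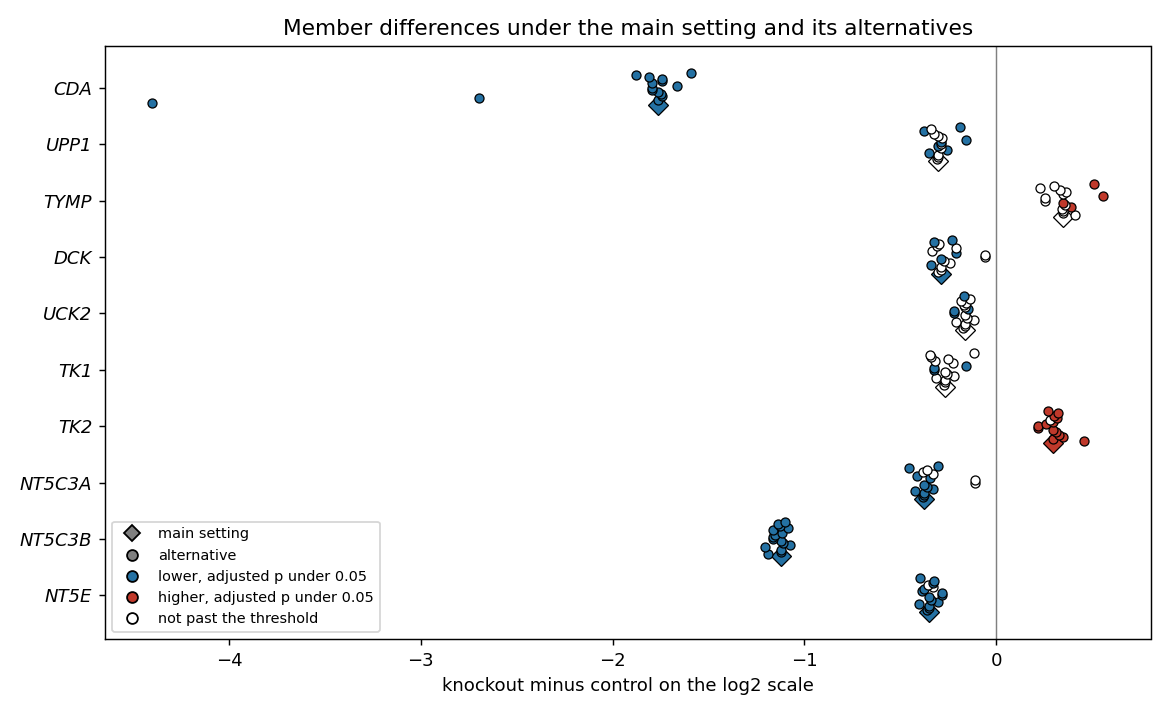
Differences of each gene (horizontal axis, log2 scale) under the main setting (diamonds) and its alternatives (circles), filled where adjusted p was under 0.05. NT5C3B keeps within -1.21 to -1.08, and CDA spreads to -4.40 with the smaller pseudocount. Every other gene has points on both sides of the threshold.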

How the data were processed

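RNA was selected with oligo(dT) beads and made into libraries with an Illumina TruSeq kit, per the labels' protocols. The authors deposited 1 table of FPKM values, rounded to 3 decimals, for 6 libraries, with 1 column each and 0 other columns. Per the submitters' processing notes the authors used GRCh38.p13 with HISAT2 2.0.5 as well as featureCounts 1.6.3, Cufflinks, Trimmomatic 0.36 and edgeR 3.6.3, with no roles stated. Neither annotation release nor strand setting is given there.

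Gene names were matched by Ensembl identifier (19991 in a name table, 23 in GENCODE 29). GENCODE 29 (GRCh38) also gave positions, exonic length and GC content. Upstream sequences are from RefSeq (GRCh38.p14), and all 10 genes matched. Library sizes were estimated from the steps of low FPKM values times exonic length. Since 58.4% to 63.4% of those values were whole to within 0.15, reads were not recovered, and no counting interval is given.

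Values were log2(FPKM + 1) for genes with a mean of at least 1 FPKM. Differences were tested with limma 3.58.1 (R 4.3.3), an intensity trend, genotype as the sole term and Benjamini-Hochberg adjustment over all 11262 genes at 0.05; the code was tested on simulated data. "Called" means past that threshold. Leave-one-out fits share the spread over the remaining libraries. The 16 alternatives were other pseudocounts, filters and scalings, array weights (whose estimate stopped before convergence), a replicate block, a spline correction for GC content and length, and leaving out each library. Deviations of same-numbered libraries from their group means correlated across genes at 0.375, 0.150 and 0.188. All were above 0.1, so a fit with the replicate block is given as an alternative. The main fit and its p-values do not pair the libraries. The numbers are shared in the labels, but no label names a shared day or batch, and such correlations do not establish a pair. The blocked values are given where they change a call.

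The 10 genes and the related lists were chosen with earlier results of these data known. Named are all 10 genes, STUB1, up to 4 called genes per list by smallest p, genes of neighbouring enzyme steps, the 2 nearest tested genes of each member and the 3 genes most like the member with the largest difference. CAD, DPYD, DPYS, UPB1, ADORA2B, the concentrative transporters, NME1-NME2, KLHL10, KRT13, AKAP12 and the markers were named after their values were seen. The lists covered other pyrimidine salvage enzymes, other nucleotidases, pyrimidine and deoxynucleotide synthesis, pyrimidine breakdown, nucleoside transporters, extracellular nucleotides and adenosine, purine salvage, S phase, APOBEC deaminases, and markers of keratinocytes, fibroblasts, melanocytes, leukocytes and simple or kidney epithelium. The tables were made with Python 3.11.15 and pandas 2.3.3.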

Additional observations from a re-analysis of the deposited data

How the results depend on the processing

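The directions of all 10 genes held under the 16 alternatives. CDA (15 alternatives, since a filter at 5 FPKM removed it) and NT5C3B kept their calls throughout. The count of genes called lower was 5. It was 3 with the filter at 5 FPKM, which tested neither CDA nor TK2, and 8 with array weights, and 2 to 7 when 1 library was left out (2 without knockout 2 or knockout 3). The count called higher was 1. It was 0 with that filter, 2 with scaling by nuclear genes, 2 with array weights, 2 in the replicate block fit and 0 to 2 without 1 library (0 without knockout 2, 2 without control 3). With the block the counts were 6 lower and 2 higher, the added calls being UPP1 and TYMP. Among the genes recomputed one by one, the block also ended the call of ENTPD1 and added NT5C, CAD and MOB1B, and it changed no other. Over all 11262 tested genes, lower calls ran from 639 (without knockout 2) to 2418 (without control 3), against 1500 in the main fit. Higher calls ran from 391 to 2103 in the same fits, against 1079. Without knockout 1, control 1 and control 2 the calls were 897, 928 and 1426 lower and 525, 572 and 1349 higher. Nothing about the 10 genes is read from the changing counts.

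Of related genes, 4 were called higher: 1 as TPM, 8 after the GC and length correction, 9 with the replicate block added to it, 20 with array weights (not converged), and 1 to 14 without 1 library (1 without knockout 1, knockout 3 or control 1, 2 without knockout 2, 14 without control 3). The 10 called lower became 5 with scaling by nuclear genes, 19 with array weights and 3 to 15 without 1 library (5, 3 and 4 without knockouts 1, 2 and 3). All tested genes gave 2579 calls, 6437 with array weights, and 1030 (without knockout 2) to 4521 (without control 3) without 1 library, with 1422, 1192 and 1500 without knockout 1, knockout 3 and control 1. As TPM, higher genes were 29.1% of calls against 41.8%.

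Without control 3, UCK1, CMPK1, NT5M, TYMS and SCO2 passed. Genes near 0 changed sign. DCTD went to -0.0226 as TPM and to -0.0004 after the GC and length correction, with or without the block (-0.0004). DTYMK went to 0.024 with scaling by nuclear genes, to 0.14 with array weights (adjusted p = 0.0317, limma) and ranged from -0.13 to 0.14 without 1 library. NT5C2 went to -0.0185 with array weights and ranged from -0.0215 to 0.0981, and TYMS from -0.0065 to 0.1519. DDOST went to -0.0088 as TPM. With the GC and length correction, ADORA2B went to 0.0352 and HUS1 to 0.0181, and to the same values with the block. Why these settings changed the values was not tested. Depth is not stated, so what it limits could be judged for CDA alone.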

Other observations

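Cytidine deaminases that act on nucleic acids, the APOBEC family, are encoded apart from CDA. Of 11 members 5 were tested, all with differences below 0, and 2 were called lower by limma with Benjamini-Hochberg adjustment. Over all 11262 tested genes 5835 had differences below 0, and 13.3% were called lower. The 5 lie together on chromosome 22, from 38952741 (start of APOBEC3A) to 39053910 (end of APOBEC3F). The annotated spans of APOBEC3A and APOBEC3B overlap. The 5 are therefore not separate observations, and the part of their position in the differences was not tested. APOBEC3C fell from 66.1 ± 1.996 to 55.5 ± 2.57 FPKM (SD, n = 3; log2 difference -0.25, limma with Benjamini-Hochberg adjusted p = 0.0342). APOBEC3F fell from 9.47 ± 0.709 to 7.48 ± 0.171 FPKM (-0.30, limma with Benjamini-Hochberg adjusted p = 0.022). They lost their calls in 7 and 5 of 16 alternatives. The family members are similar in sequence, and reads may be split among them.

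Purine salvage gave 1 call among 8 tested genes, and the list had a median of 0.01. HPRT1, which recycles hypoxanthine and guanine, fell from 95.8 ± 14.2 to 68.0 ± 3.89 FPKM (SD, n = 3; -0.48, limma with Benjamini-Hochberg adjusted p = 0.013). After the GC and length correction it was -0.225 and still passed, and without knockout 2 it was -0.43 and did not (adjusted p = 0.0827). It lies on the X chromosome, where 16 of 29 tested genes within 10 Mb were called lower and 0 higher, with a median of -0.28. Of 7 simple epithelial and kidney markers 4 were tested. KRT8 (-0.49) and KRT18 (-0.33) were called lower (KRT18 not without any 1 of the 3 knockout libraries). KRT19 (450 FPKM in knockout against 443 in control, 0.04) and VIL1 (-0.13) were not called. PAX2 and CDH16 were listed at 0 in all 6 libraries.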
